A study of Mus musculus with 7 samples.

Results

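Mitosis and spindle genes are the 40 genes described here: the cyclins and kinases that drive entry into mitosis, the proteins of chromosomes, kinetochores and spindle, and those of cytokinesis and mitotic exit. They were taken by name from a fixed list and found by gene identifier in the deposited tables. All 40 were found among the 18036 genes with at least 1 read in at least 1 library, and all 40 had reads in all 7 libraries.

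The libraries were made from colon epithelium scraped off the muscle layer of female hCYP1A mice, C57BL/6 animals that carry the human CYP1A genes in place of their mouse counterparts. The mice were 6 weeks old at the start, and all groups, the control included, had this genotype. The untreated control gave 1 library, labelled as normal in pathology. The DSS arm drank 1.5% dextran sulfate sodium, which injures the colon epithelium and causes colitis, for 5 days. The PhIP/DSS arm first received 2 doses of 100 mg/kg PhIP, a mutagenic amine formed in cooked meat, 4 days apart, and the same DSS course a week later. Each arm gave 1 library on each of days 1, 3 and 7 after DSS, and the pathology was labelled as colitis on days 1 and 3 and partial colitis on day 7. Each treated table is named with a later day code than its sample label, in the same order. The days given here are those of the sample labels, and which count of days the codes follow was not given in the sources used here. Every library was 1 pool of RNA from 3 mice, so no condition had a replicate library, and the spread between mice of a condition was not measured.

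The libraries held between 7664276 and 8781886 uniquely mapped reads, the control having the fewest. The members had between 47 and 3824 reads in a library, and 33 of them had at least 100 reads in every library. All 12 markers of colon epithelium had reads in every library. Their summed level ran from 9754 RPKM in the control to 12136 on day 1 of DSS. Between these libraries the keratin genes Krt8 (3127 to 3865 RPKM), Krt19 (2427 to 3217) and Krt20 (448 to 941) rose most in absolute RPKM. Cdh1 (511 to 471) and Cldn3 (734 to 665) fell, and the other markers, the adhesion gene Epcam among them, rose by fewer RPKM. As a ratio, the rise of Elf3 (304 to 441) was larger than those of Krt8 and Krt19. Whether this sum follows the amount of epithelium was not tested, which also holds where libraries are scaled by these markers. Markers of other cells differed more between libraries. The summed level of 10 neutrophil markers, of which Ly6g had no reads and 4 of the others were at 0 in the control, was 2.95 RPKM in the control, 35.2, 1170 and 462 on days 1, 3 and 7 of DSS and 790, 31.5 and 66 on those days of PhIP/DSS. The 10 macrophage and monocyte markers summed to 51.9 RPKM in the control, 112, 288 and 251 in DSS and 510, 105 and 194 in PhIP/DSS. The 8 fibroblast markers summed to 11.2 RPKM in the control, 38, 82.8 and 84.4 in DSS and 162, 35.9 and 65.1 in PhIP/DSS. The 6 fat markers summed to 126 RPKM on day 1 of PhIP/DSS against 16 in the control and 2.47 to 6.54 in the other 5 libraries, so the PhIP/DSS day 1 library was the highest of the 7 in macrophage, fibroblast and fat markers. The 10 T and NK cell markers, of which Trac had no reads, summed to between 6.4 and 15.1 RPKM, the 8 B and plasma cell markers to between 124 and 197, the 7 endothelial markers to between 2.1 and 5.88 and the 6 smooth muscle markers to between 11.1 and 19.6. In bulk RNA of this kind, a change in the number of dividing cells cannot be told apart from a change in the RNA per cell.

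A dividing cell enters mitosis when cyclin B and its kinase CDK1 become active. Chromosomes then condense, kinetochores attach them to the microtubules of the spindle, and a checkpoint delays separation until every kinetochore is attached. The anaphase-promoting complex then marks cyclins and other proteins for breakdown, and a contractile ring divides the cell. In the colon, division takes place in the lower crypt, where stem cells and their transit-amplifying daughters renew the epithelium, and crypts divide more in the repair that follows DSS injury. Most genes of this class share promoter elements: the cell cycle genes homology region (CHR), through which the DREAM complex represses them in resting cells and B-MYB and FOXM1 activate them in G2 and mitosis, and the CCAAT box, bound by NF-Y.

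These elements can be read in the promoters of the members. The stretches below are taken from the RefSeq promoter table of GRCm38.p6. All but that of Mad2l1 are shown because they carry 1 or both of the elements that most of the 40 genes share. They run from position -100 to -1 before the start, except those of Top2a (-110 to -11) and Mki67 (-200 to -81). Capitals mark the CHR (TTTGAA, or its variants, which are TTTAAA in 1 form, TTCGAA in another and CTTGAA in the last) and the CCAAT box (CCAAT), each on either strand. Cdk1 (chr10:69352913-69353012, minus strand), Ccnb1 (chr13:100786487-100786586, minus strand), Ccnb2 (chr9:70421555-70421654, minus strand), Cdc20 (chr4:118437344-118437443, minus strand) and Ube2c (chr2:164769829-164769928, plus strand) are genes of cyclin B, its kinase and its breakdown. Kif11 (chr19:37376282-37376381, plus strand) and Top2a (chr11:99024200-99024299, minus strand) encode a spindle motor and a topoisomerase, and Mki67 (chr7:135716460-135716579, minus strand) encodes the proliferation antigen Ki-67. Mad2l1 (chr6:66535121-66535220, plus strand), a checkpoint gene, is shown as a member with neither element in its stretch. The Ccnb2 stretch holds CCAAT boxes but no CHR, since its CHR matches lie outside it, at positions -167 and 5. Each lies upstream of its gene and overlaps no other RefSeq gene.
Cdk1: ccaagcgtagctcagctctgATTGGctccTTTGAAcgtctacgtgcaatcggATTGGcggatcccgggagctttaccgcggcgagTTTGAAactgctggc
Ccnb1: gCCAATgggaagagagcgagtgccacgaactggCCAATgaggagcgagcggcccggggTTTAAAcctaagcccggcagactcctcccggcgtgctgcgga
Ccnb2: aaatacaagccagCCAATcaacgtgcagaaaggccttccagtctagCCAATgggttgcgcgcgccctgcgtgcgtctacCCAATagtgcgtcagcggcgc
Cdc20: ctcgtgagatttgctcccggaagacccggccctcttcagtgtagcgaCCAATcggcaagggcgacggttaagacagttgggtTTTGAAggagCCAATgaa
Ube2c: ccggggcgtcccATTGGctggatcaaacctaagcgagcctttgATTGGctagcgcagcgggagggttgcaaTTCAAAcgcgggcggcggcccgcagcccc
Kif11: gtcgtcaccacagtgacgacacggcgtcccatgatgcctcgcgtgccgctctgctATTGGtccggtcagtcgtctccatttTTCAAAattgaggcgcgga
Top2a: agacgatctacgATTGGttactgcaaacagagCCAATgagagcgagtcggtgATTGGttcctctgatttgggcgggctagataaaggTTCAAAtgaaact
Mki67: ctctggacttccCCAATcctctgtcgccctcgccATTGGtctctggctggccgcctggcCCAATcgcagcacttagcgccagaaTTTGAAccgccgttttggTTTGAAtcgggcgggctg
Mad2l1: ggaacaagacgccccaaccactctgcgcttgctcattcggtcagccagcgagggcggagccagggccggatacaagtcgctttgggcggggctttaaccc

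The table held 35 promoter windows, each from 250 bases before to 50 after a start, for 33 of the 40 members. Ccna2, Pbk, Foxm1, Cdca2, Aurkb, Tpx2 and Kif20a had no entry. A CHR stood in 26 of the 35 windows (74.3%), against 17.9% of all 32851 windows in the table, and a CCAAT box in 26 (74.3%), against 37.4%. Both elements stood together in 23 windows (65.7%), against 6.95% of all windows. Counting the CHR variants as well, 31 of 35 windows held a CHR or a variant (88.6%, against 37.3%), and those of Mybl2, Nuf2, Mad2l1 and Nusap1 held none. Much of this depends on the bases around and after the start: when only the 200 bases before the start were read, a CHR stood in 11 of the 35 windows (31.4%, against 12.5% of all), while the CCAAT box still stood in 26. A TATA box (TATAAA) stood in 1 window (2.86%, against 13.6%), that of Kif2c, and in 0 within the 200 bases before the start. An E2F site, the element of genes that act earlier, at the entry to DNA replication, stood in 1 member window (2.86%, that of Cdk1, against 2.26% of all), and in 14 of 40 windows (35%) that the table held for 34 of the 43 DNA replication genes. Windows of 57 of the 72 other mitosis genes, 66 in all, held a CHR in 50% and a CCAAT box in 69.7%, and those of the replication genes held a CHR in 12.5% and a CCAAT box in 57.5%. These are matches of letters, not shown sites, and the files hold no measurement of binding.

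On day 1 after DSS the mitosis genes stood above the control library in both arms. In the DSS library 39 of 40 members were above the control, with a median RPKM ratio of 1.62, and in the PhIP/DSS library 38 of 40, with a median of 1.69. The median over all genes with at least 1 RPKM (reads scaled to gene length and library total) in at least 2 libraries was 1 and 1.01. At 1.5-fold or more, 25 members were higher and 0 lower in DSS, where 14.8% of all genes were higher and 14.2% lower. In PhIP/DSS 27 were higher and 0 lower, where 22.9% of all genes were higher and 19.9% lower. Scaled by the reads of the 12 epithelial markers in place of all reads, 10 members in DSS and 15 in PhIP/DSS were higher by 1.5-fold or more, where 8.22% and 15.5% of all genes were, and the medians were 1.32 and 1.41, beside 0.815 and 0.847 over all genes. The exact 95% counting interval of the ratio, which covers read counting only, lay above 1 for 37 members in each arm. It was computed for the 40 members only, so no share of all genes stands beside this count. For 37 of the 40 members both day 1 libraries were above all 5 others, which held for 18.5% of the 12061 genes tested. The 3 exceptions were Mki67, Cenpf and Cdca3. The highest library was PhIP/DSS day 1 for 27 members and DSS day 1 for 13. The summed level of the 40 genes was 523 RPKM in the control, 813, 593 and 461 on days 1, 3 and 7 of DSS and 887, 532 and 510 in PhIP/DSS. Both day 1 libraries were thus high in these genes, while their neutrophil marker sums were 35.2 and 790 RPKM, and the DSS day 3 library with the highest neutrophil sum (1170) had 593 RPKM of mitosis genes. The part of other cell types in these levels was not tested.

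**Figure D1:**
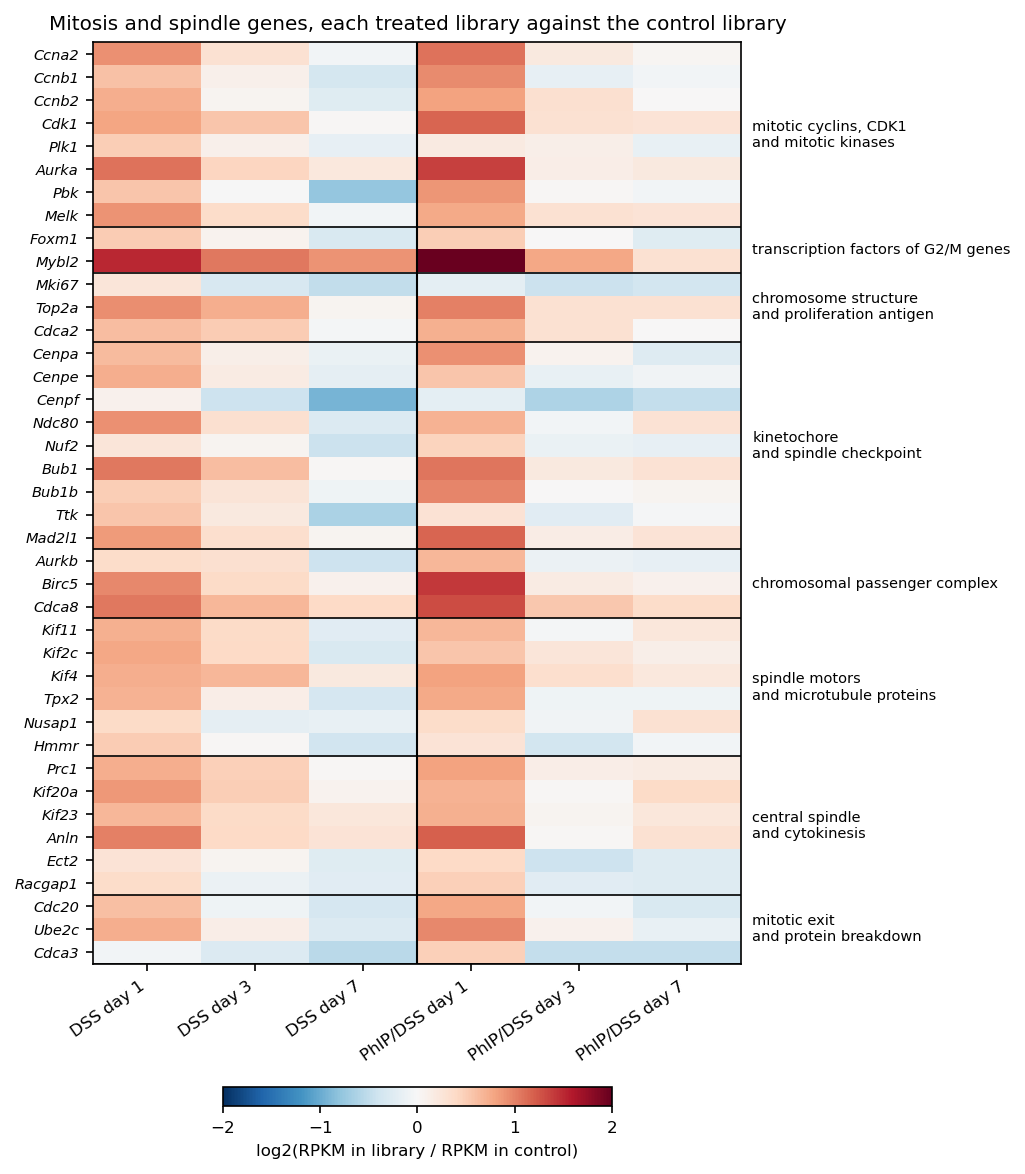
Colour gives the log2 ratio of RPKM in each treated library (columns) to the control library for the 40 genes (rows, grouped by role), red above and blue below the control, with 1 library per column. The 2 day 1 columns are red for nearly every gene, and Cenpf and Mki67 are above the control in the DSS day 1 column alone.

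Among the cyclins, CDK1 and mitotic kinases, all 8 members were above the control in both day 1 libraries. Ccna2, the cyclin that acts from S phase into mitosis, stood at 30.4 RPKM in the control, 57.3, 37.5 and 29.4 on days 1, 3 and 7 of DSS, and 64.1, 34.7 and 31.4 in PhIP/DSS. Both day 1 libraries were well above the other 5, and the ratio to the control was 1.88 (95% counting interval 1.71 to 2.07) in DSS and 2.11 (1.92 to 2.31) in PhIP/DSS. Ccnb1, the main cyclin partner of CDK1, stood at 13 RPKM in the control, 19.4, 14 and 10.2 in DSS and 25.1, 11.5 and 12.5 in PhIP/DSS. Ccnb2, the other B-type cyclin, stood at 18.3 RPKM in the control, 30.2, 19.1 and 15.4 in DSS and 32.2, 22.8 and 18.2 in PhIP/DSS. Like Ccna2, both B cyclins were highest in the day 1 libraries, and on day 7 they stood at or below the control. On day 3 of PhIP/DSS the ratio to the control was 0.886 (0.734 to 1.07) for Ccnb1 and 1.25 (1.04 to 1.49) for Ccnb2. These intervals overlap, and the difference between the 2 genes was not tested. The ratio of Ccnb2 to Ccnb1 within a library ran from 1.28 on day 1 to 1.98 on day 3 of PhIP/DSS. Their copies Ccnb1-ps and Ccnb2-ps, which RefSeq lists, had no reads in these tables, and reads that fit both a gene and its copy would not be counted as unique. Cdk1, the kinase itself, stood at 7.57 RPKM in the control, 13.1, 11.1 and 7.67 in DSS and 17, 9.34 and 9.16 in PhIP/DSS, so the control was its lowest library. In the library with the least coverage, reads covered 41.6% of the stated length of Cdk1, against 86.9% for Ccna2. This may bear on the level of Cdk1 beside other genes or on its ratios between libraries, and neither was tested. The least coverage was also low for other members, among them Birc5 (44.9%), Bub1 (50.5%), Cenpf (53.3%) and Mybl2 (55.8%), to which the same limit applies.

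Aurka, the Aurora kinase of the spindle poles, stood at 10.7 RPKM in the control, 22.8, 14.4 and 12.4 in DSS and 27.4, 11.8 and 12.2 in PhIP/DSS. It had the highest day 1 ratios of these 8, 2.13 (1.77 to 2.59) and 2.57 (2.13 to 3.1). Plk1, the Polo kinase that works with it at centrosomes and kinetochores, was the most abundant kinase per length and had a flatter course. It stood at 39.3 RPKM in the control, 55.2, 42.1 and 34.9 in DSS and 44.4, 42.8 and 35.6 in PhIP/DSS, a day 1 ratio of 1.4 (1.27 to 1.55) and 1.13 (1.02 to 1.25). Pbk, a kinase made in dividing cells, stood at 10.2 RPKM in the control, 14.9, 10.1 and 5.97 in DSS and 18.9, 10.4 and 9.88 in PhIP/DSS. Its low DSS day 7 library gave it the widest spread of the list after Mybl2, 3.17-fold between the highest and lowest library. Melk, another kinase of dividing cells, had day 1 ratios of 1.86 and 1.68.

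Of the transcription factors that activate G2/M genes, Mybl2 (B-MYB) had the highest ratio to the control of all 40 members in 5 of the 6 treated libraries. On day 7 of PhIP/DSS Kif20a (1.31) was above it (1.24). It stood at 2.85 RPKM in the control, 8.08, 5.94 and 5.33 in DSS and 11.2, 4.87 and 3.54 in PhIP/DSS, so the control was below all 6 treated libraries. The day 1 ratio was 2.83 (2.2 to 3.68) in DSS and 3.92 (3.07 to 5.06) in PhIP/DSS, from 81 reads in the control and 354 in the highest library. Foxm1, its partner at CHR promoters, stood at 9.12 RPKM in the control, 12.9, 9.54 and 7.34 in DSS and 12.8, 9.11 and 7.73 in PhIP/DSS. The arms were close to each other on every day for Foxm1, with ratios of PhIP/DSS to DSS between 0.955 and 1.05.

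Top2a and Mki67, both common labels of proliferating cells, did not follow the same course. Top2a, the topoisomerase that untangles chromosomes, stood at 19.8 RPKM in the control, 37.8, 32.8 and 20.5 in DSS and 39.5, 24.6 and 24.5 in PhIP/DSS, with the control lowest. Mki67, which coats mitotic chromosomes, stood at 36.8 RPKM in the control, 43.4, 29.6 and 26.2 in DSS and 32.4, 27.4 and 28.7 in PhIP/DSS. Its DSS day 1 library was thus the only one above the control, at 1.18 (1.12 to 1.24), and the PhIP/DSS day 1 library was below it, at 0.88 (0.835 to 0.927). The ratio of Top2a to Mki67 within a library, both per length, was 0.538 in the control, 0.871, 1.11 and 0.784 in DSS and 1.22, 0.899 and 0.854 in PhIP/DSS, higher in all 6 treated libraries than in the control. Mki67 has a stated length of 10098 bases, which only Cenpf (11130) exceeds among the members. Over all genes, the ratio to the control was lower for longer genes, with Spearman's rho between -0.29 (PhIP/DSS day 1) and -0.11 (DSS day 7), a description across genes of libraries that share 1 control. Over the 40 members rho was -0.23 and -0.017 in those day 1 libraries of PhIP/DSS and DSS. The part of gene length in the course of Mki67 was not tested. Cdca2, which recruits a phosphatase to chromosomes at mitotic exit, stood at 3.51 RPKM in the control, 5.39, 4.98 and 3.42 in DSS and 5.76, 4.33 and 3.54 in PhIP/DSS.

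**Figure D2:**
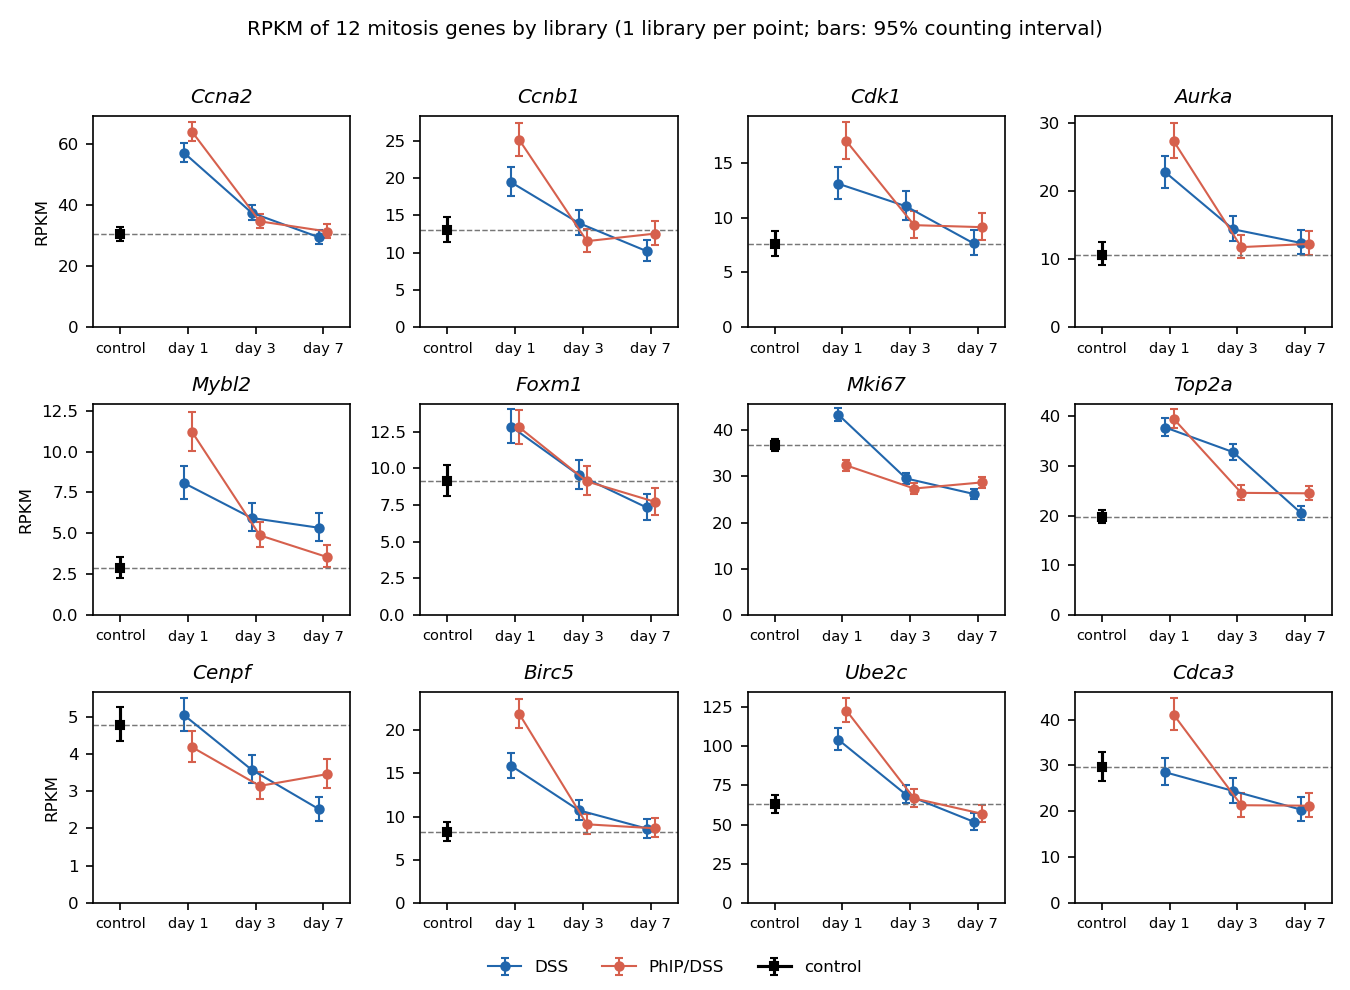
RPKM on the vertical axis for 12 members in the control (square), DSS (blue) and PhIP/DSS (red) libraries on days 1, 3 and 7, with 1 library per point and bars for its 95% counting interval. Both day 1 points lie above the control line for 9 of the 12, and for Mki67, Cenpf and Cdca3 they fall on either side of it.

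Of the 9 kinetochore and checkpoint genes, 9 were above the control on day 1 of DSS and 8 on day 1 of PhIP/DSS, with median ratios of 1.55 and 1.61. Mad2l1, the checkpoint protein that holds back CDC20, stood at 15.1 RPKM in the control, 27.1, 18.9 and 15.7 in DSS and 34, 16.7 and 18.2 in PhIP/DSS. Cenpa, the histone that marks the centromere, stood at 12.7 RPKM in the control, 19.6, 13.7 and 11.5 in DSS and 23.9, 13.3 and 10.6 in PhIP/DSS. These 2 were the most abundant of the list, and both were highest on day 1 of PhIP/DSS. Ndc80, the outer kinetochore protein that grips microtubules, stood at 3.14 RPKM in the control, 5.93, 3.93 and 2.59 in DSS and 5.06, 3.02 and 3.84 in PhIP/DSS, with 47 reads in its lowest library. Ttk, the kinase that starts the checkpoint signal, stood at 3.82 RPKM in the control, 5.6, 4.35 and 2.46 in DSS and 4.68, 3.27 and 3.73 in PhIP/DSS. For both of them DSS day 1 was the highest library and DSS day 7 the lowest. Bub1 and Bub1b, checkpoint kinase and pseudokinase, had day 1 ratios of 2.09 and 1.4 in DSS and 2.1 and 1.96 in PhIP/DSS. Cenpe, a kinetochore motor, had 1.66 and 1.47, and Nuf2, the partner of NDC80, 1.18 and 1.36. Cenpf, a large kinetochore protein singled out after its values were seen, was the exception. It stood at 4.79 RPKM in the control, 5.05, 3.58 and 2.51 in DSS and 4.19, 3.15 and 3.47 in PhIP/DSS, so 5 of the 6 treated libraries were below the control. By stated length Cenpf (11130 bases) is the longest member, followed by Mki67 (10098) and Cenpe (7813). Mki67 was above the control on day 1 of DSS alone, and Cenpe in both day 1 libraries. The part of gene length in the course of Cenpf was not tested.

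The 3 genes of the chromosomal passenger complex, which corrects faulty attachments and guides cytokinesis, had median day 1 ratios of 1.94 in DSS and 2.47 in PhIP/DSS. Birc5 (survivin), its targeting subunit, stood at 8.17 RPKM in the control, 15.9, 10.7 and 8.62 in DSS and 21.9, 9.1 and 8.64 in PhIP/DSS. Cdca8 (borealin), which binds survivin, stood at 12.1 RPKM in the control, 25, 19.2 and 16 in DSS and 30.0, 17.7 and 15.7 in PhIP/DSS. Cdca8 stayed above the control in all 6 treated libraries, with every counting interval above 1, while Birc5 was within 1.06-fold of the control on day 7 in both arms. Aurkb, the kinase of the complex, stood at 12.6 RPKM in the control, 16.2, 15.8 and 9.47 in DSS and 20.1, 11.6 and 11.3 in PhIP/DSS. Its day 1 ratios, 1.29 (1.07 to 1.56) and 1.59 (1.33 to 1.91), were the lowest of the 3, and on day 7 it was below the control in both arms.

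All 6 genes of spindle motors and microtubule proteins were above the control in both day 1 libraries. Tpx2, which activates Aurora A on the spindle, stood at 10.5 RPKM in the control, 16.8, 11.5 and 8.24 in DSS and 17.7, 9.9 and 9.87 in PhIP/DSS. Kif2c, a kinesin that shortens microtubules at kinetochores, stood at 4.82 RPKM in the control, 8.27, 6.38 and 3.92 in DSS and 7.14, 5.68 and 5.2 in PhIP/DSS. Nusap1, which bundles spindle microtubules, stood at 9.52 RPKM in the control, 12.4, 8.39 and 8.59 in DSS and 12.2, 9.06 and 11.8 in PhIP/DSS. Nusap1 differed from the other 5 in that its PhIP/DSS day 7 library was nearly as high as those of day 1. Kif11, the motor that pushes spindle poles apart, Kif4, a chromosome-bound kinesin, and Hmmr, a spindle pole protein, had day 1 ratios of 1.63, 1.65 and 1.42 in DSS and 1.6, 1.74 and 1.2 in PhIP/DSS. RefSeq lists a copy of Kif4, Kif4-ps, which had no reads here.

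The 6 genes of the central spindle and cytokinesis were likewise above the control in both day 1 libraries. Anln, the actin-binding protein of the contractile ring, stood at 4.4 RPKM in the control, 8.9, 5.8 and 5.3 in DSS and 10.1, 4.49 and 5.45 in PhIP/DSS, with the highest day 1 ratios of the list, 2.02 (1.69 to 2.42) and 2.3 (1.94 to 2.74). Prc1, which bundles the microtubules of the central spindle, stood at 12.6 RPKM in the control, 20.8, 17.4 and 12.8 in DSS and 22.2, 13.9 and 14.1 in PhIP/DSS. Both had the control as their lowest library. Racgap1, which regulates the small GTPases of the ring, stood at 17.4 RPKM in the control, 22.3, 16.1 and 14.8 in DSS and 24, 15 and 14.5 in PhIP/DSS, above the control on day 1 only. Kif20a, a kinesin of the midzone, stood at 5.32 RPKM in the control, 9.76, 7.48 and 5.58 in DSS and 8.67, 5.44 and 6.98 in PhIP/DSS. Kif23, the motor partner of RACGAP1, and Ect2, the exchange factor it recruits, had day 1 ratios of 1.58 and 1.21 in DSS and 1.64 and 1.32 in PhIP/DSS.

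The genes of mitotic exit split. Ube2c, the ubiquitin-conjugating enzyme of the anaphase-promoting complex and the most abundant member per length, stood at 63.1 RPKM in the control, 104, 69.1 and 51.8 in DSS and 123, 66.7 and 56.9 in PhIP/DSS. Cdc20, its activator, stood at 21.6 RPKM in the control, 32.8, 20.5 and 17.2 in DSS and 37.2, 20.8 and 17.4 in PhIP/DSS. The ratio of Ube2c to Cdc20 within a library ran only from 2.92 to 3.37, so the 2 genes kept a near constant proportion over the 7 libraries. Cdca3, a trigger of mitotic entry, stood at 29.5 RPKM in the control, 28.5, 24.4 and 20.3 in DSS and 41.1, 21.3 and 21.2 in PhIP/DSS. It was above the control on day 1 of PhIP/DSS alone, at 1.39 (1.21 to 1.6), and below it in the other 5 treated libraries, with a counting interval that reached 1 on day 1 of DSS.

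By day 3 every one of the 40 members was lower than on day 1, in both arms. The median ratio of day 3 to day 1 was 0.728 in DSS, from 0.625 (Cdc20) to 0.973 (Aurkb), and 0.603 in PhIP/DSS, from 0.415 (Birc5) to 0.964 (Plk1). At 1.5-fold or more, 7 members were lower in DSS, where 5.2% of all genes were, and 28 in PhIP/DSS, where 14.4% were. With libraries scaled by epithelial marker reads, 0 members were lower by 1.5-fold or more in DSS (2.65% of all genes) and 27 in PhIP/DSS (12.7%). With that scaling 6 members in DSS and 1 in PhIP/DSS stood above their day 1 level. Against the control, 33 members were above on day 3 of DSS (median ratio 1.22), with 5 at 1.5-fold or more higher and 0 lower, where 14% and 14.5% of all genes were. On day 3 of PhIP/DSS 22 were above with a median of 1.02 (10 and 0.896 when scaled by epithelial markers), with 1 at 1.5-fold or more higher and 1 lower, where 11.2% and 11.7% of all genes were. The members at or past 1.5-fold were Mybl2, Top2a, Cdca8, Kif4 and Bub1 in DSS, and Mybl2 (higher) and Cenpf (lower) in PhIP/DSS. Both day 3 libraries were above the control for 21 members and both below for 6.

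From day 3 to day 7 the arms took different courses. In DSS 39 of 40 members were lower on day 7 than on day 3, with a median ratio of 0.763, and 8 were lower by 1.5-fold or more, where 4.91% of all genes were. In PhIP/DSS 22 of 40 were lower, with a median of 0.996 (1.06 when scaled by epithelial markers), and 0 were lower by 1.5-fold or more, where 3.95% of all genes were. The difference between these courses was not tested, since each point is 1 library. On day 7 of DSS 13 members were above the control and the median ratio was 0.884, below the all-gene median of 0.959. Scaled by epithelial markers 6 were above and the median was 0.793, beside 0.861 over all genes. At 1.5-fold or more 1 member (Mybl2) was higher and 3 (Cenpf, Pbk and Ttk) were lower, where 12.9% and 12.7% of all genes were, and scaled by epithelial markers 6 were lower, where 19.1% of all genes were. On day 7 of PhIP/DSS 21 were above the control, with a median of 1.02 (0.953 when scaled by epithelial markers), and 0 were past 1.5-fold in either direction, where 13% of all genes were higher and 10.7% lower. DSS day 7 was the lowest of all 7 libraries for 23 members, and the control for 13. Both day 7 libraries were above the control for 13 members, among them Aurka, Mybl2, Cdca8 and Anln, and both below for 19, among them Mki67, Cenpf, Cdc20 and Ube2c.

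By the median of the members, the PhIP/DSS library stood slightly above the DSS library on days 1 and 7 and below it on day 3. Each of these ratios sets 1 library against 1 library, so the difference between the arms on a day was not tested. The median ratio of PhIP/DSS to DSS was 1.07 on day 1, 0.855 on day 3 and 1.1 on day 7, where the all-gene median was 1.01 each time, and 27, 5 and 34 of the 40 members were above 1. On day 1 0 members were past 1.5-fold in either direction, where 10.7% of all genes were higher and 6.32% lower. On day 3 again 0 were, where 5.61% and 7.35% of all genes were. On day 7 Pbk (1.65) and Ttk (1.52) were higher and Mybl2 (0.663) was lower by 1.5-fold or more, where 5.69% and 5.67% of all genes were. The counting interval lay above 1 for 15 members and below 1 for 4 on day 1, for 1 and 16 on day 3, and for 14 and 1 on day 7. As the interval was computed for the members only, no share of all genes stands beside these counts. The members above on day 1 included Cdca3 (1.44), Bub1b (1.4), Mybl2 (1.39) and Birc5 (1.38), and those below were Mki67 (0.746), Plk1 (0.805), Cenpf (0.829) and Hmmr (0.848). On day 3 the lowest ratios were those of Ect2 (0.719), Kif20a (0.727), Aurkb (0.735) and Bub1 (0.74), and Ccnb2 (1.2) alone had an interval above 1. The arms also differed in other cells on these days: the neutrophil markers stood at 790 against 35.2 RPKM on day 1, 31.5 against 1170 on day 3 and 66 against 462 on day 7 in PhIP/DSS and DSS. Their part in these ratios was not tested.

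**Figure D3:**
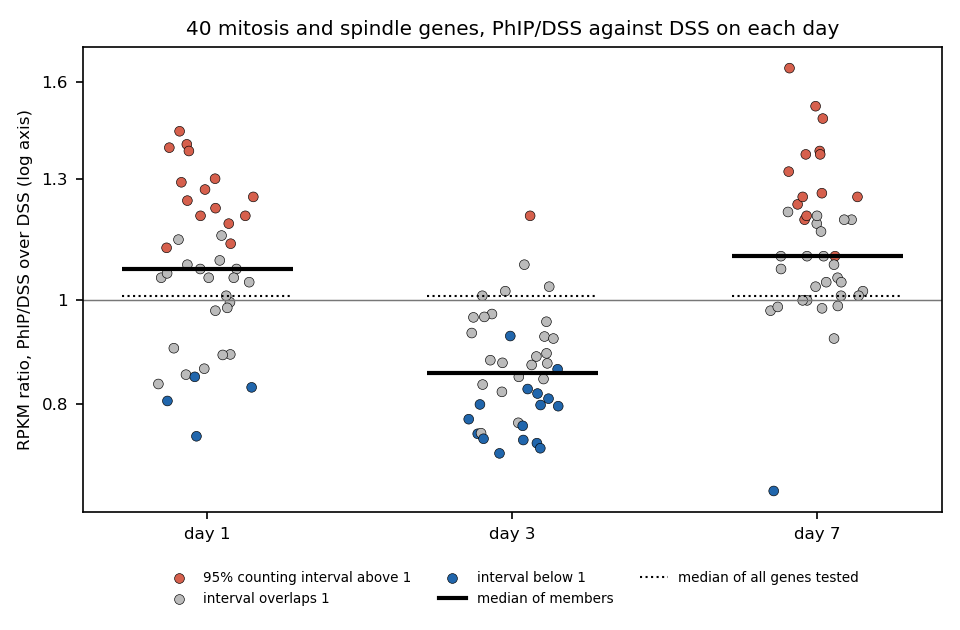
Each point is 1 of the 40 genes, its RPKM in the PhIP/DSS library over that in the DSS library of the same day on a log axis, coloured by whether the 95% counting interval lies above 1, below 1 or overlaps it. The medians of members (thick bars) lie at 1.07, 0.855 and 1.1 on days 1, 3 and 7, beside an all-gene median of 1.01 (dotted).

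The tests across libraries called 0 members in each of the 6 comparisons. They came from 1 edgeR quasi-likelihood fit of all 7 libraries, in which each day is the mean of both arms and the spread comes from how the arm difference varies over the days, so the p-values reflect the spread among these pools and nothing else. It left 2 residual degrees of freedom and called 0 of the 12061 genes (0%) in any of the 6 comparisons. For day 1 against the control, 39 of 40 members were fitted higher, with a median log2 fold change of 0.72 against 0.01 over all genes. The smallest adjusted p was 0.071, and 27 members (67.5%), all of them higher, had an unadjusted p under 0.05, against 3932 genes in all (32.6%). The values ran from -0.06 ± 0.25 (SE) for Cenpf, with an adjusted p of 0.876, to 1.76 ± 0.39 for Mybl2, with an adjusted p of 0.0755. Ccna2 had 0.99 ± 0.14 and Cdca8 1.17 ± 0.18, both with an adjusted p of 0.071, while Mki67 had 0.02 ± 0.18, with an adjusted p of 0.934. Aurka (1.22 ± 0.22), Birc5 (1.20 ± 0.25), Anln (1.10 ± 0.22), Mad2l1 (1.01 ± 0.20) and Ube2c (0.84 ± 0.15) had adjusted p-values between 0.0711 and 0.0731. Whether these pass the threshold depended on the tool and on the day 1 libraries. DESeq2 called 8 members, all higher (Ccna2, Aurka, Mybl2, Top2a, Birc5, Cdca8, Anln and Ube2c), where it called 1243 genes in all (10.5% of those with an adjusted p), and limma called 0 members. The edgeR fit called 15 members without the PhIP term, where 10.8% of all genes were called. It called 23 without the DSS day 1 library (35.5% of all genes) and 11 without the PhIP/DSS day 1 library (12.4% of all genes), with medians of 0.74 and 0.66. When the libraries were scaled by epithelial marker reads, the median of all genes moved to -0.26 and that of the members to 0.46. In that fit 9 members (22.5%) had an unadjusted p under 0.05, a lower share than the 36.2% of all genes, and 0 members were called, where 12.4% of all genes were.

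**Figure D4:**
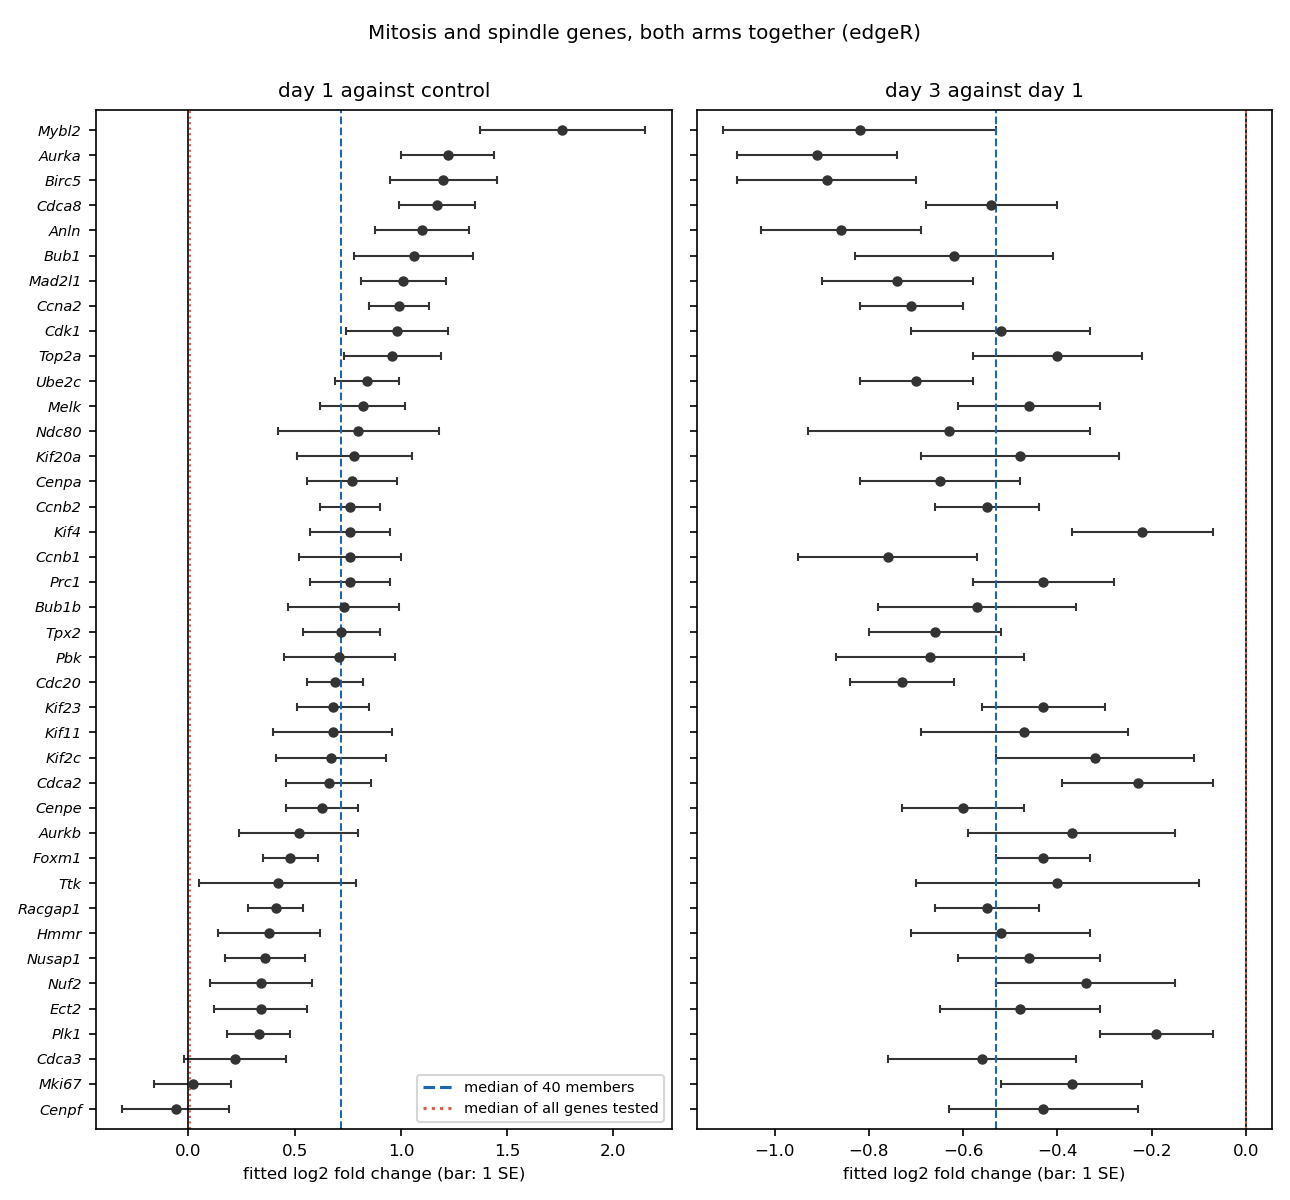
Fitted log2 fold changes (points) with 1 standard error (bars) of the 40 genes from the edgeR fit of both arms together, for day 1 against the control (left) and day 3 against day 1 (right), with the medians of members (dashed) and of all genes tested (dotted). On the left 39 of 40 points lie above 0, with a median of 0.72, and on the right all 40 lie below it, with a median of -0.53.

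For day 3 against day 1 all 40 members were fitted lower, with a median log2 fold change of -0.53 against 0 over all genes, from -0.91 (Aurka) to -0.19 (Plk1). The smallest adjusted p was 0.419, and 27 members had an unadjusted p under 0.05, against 11.7% of all genes. This number was 13 with epithelial marker reads as library size (12.5% of all genes) and 9 without the PhIP/DSS day 3 library (2.69%). DESeq2 called 2 members lower (Ccna2 and Ube2c) of the 5 to which it gave an adjusted p, the other 35 being left out by its own filter, and 1.82% of the 4111 genes that had one. Limma called 0, and edgeR called 15 without the DSS day 1 library, where 12.3% of all genes were. For day 3 against the control 31 were fitted higher, with a median of 0.17, a smallest adjusted p of 0.202 (Cdca8, 0.63 ± 0.18) and 2 unadjusted p-values under 0.05 (5%, against 19% of all genes). The median was 0.01 without the DSS day 3 library and 0.41 without that of PhIP/DSS, and Mybl2 and Cdca8 were called when the DSS day 1 or the PhIP/DSS day 1 library was left out, where 17.8% and 18.8% of all genes were. For day 7 against the control 20 were fitted higher and 20 lower, with a median of -0.03 and 1 unadjusted p under 0.05 (2.5%, against 17.2% of all genes), that of Cenpf (-0.66 ± 0.24, adjusted p 0.283). Without the DSS day 7 library the median was 0.06, without that of PhIP/DSS it was -0.16, and without the PhIP/DSS day 1 library Cenpf was called lower, as the only member, where 16.7% of all genes were called. For day 7 against day 3 38 were fitted lower, with a median of -0.21, a smallest adjusted p of 0.851 and 3 unadjusted p-values under 0.05 (7.5%, against 5.4% of all genes). Without the DSS day 3 library the median was -0.02. For PhIP/DSS against DSS over the 3 days 18 were fitted higher and 22 lower, with a median of -0.02, from -0.15 (Mki67) to 0.35 (Pbk), a smallest adjusted p of 0.998 and 0 unadjusted p-values under 0.05, against 3.66% of all genes. The median was 0.10 without the DSS day 3 library, 0.11 without that of PhIP/DSS and -0.07 without either day 7 library. In these last 4 comparisons DESeq2 and limma also called 0 members, DESeq2 giving no adjusted p for 2 members in day 7 against day 3.

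Other genes of the cell cycle give the setting of these values. The 72 other mitosis genes had median day 1 ratios of 1.42 in DSS and 1.48 in PhIP/DSS, with 61 and 60 above the control, and in 49 of them both day 1 libraries were above the other 5. The 43 DNA replication genes had higher medians, 1.79 and 2.21 on day 1, with all 43 above the control in both arms, 1.45 and 1.36 on day 3 and 1.16 and 1.17 on day 7. In 37 of them both day 1 libraries were above the other 5, which held for 18.5% of all genes tested. The edgeR fit called 0 genes of either list on day 1, where DNA replication genes had a median log2 fold change of 0.99 and other mitosis genes 0.53. Unadjusted p-values were under 0.05 for 31 of the 43 replication genes and 24 of the 72 other mitosis genes, against 32.6% of all genes. The count for the other mitosis genes was thus near the share of all genes. Rrm2, the ribonucleotide reductase subunit that supplies DNA precursors, stood at 4.39 RPKM in the control, 25.5, 17.3 and 9.91 in DSS and 37.6, 12.8 and 10.4 in PhIP/DSS. It had the highest fitted day 1 value of the list, 2.83 ± 0.37, ahead of Cdc45 (2.26 ± 0.27), which unwinds DNA with the MCM helicase, and Ccne1 (1.70 ± 0.50), the cyclin of S phase entry, and the lowest were Slbp (0.31 ± 0.15), Rfc4 (0.43 ± 0.37) and Gins4 (0.44 ± 0.23). Of the other mitosis genes Cks1b (1.92 ± 0.31), a small CDK partner, Gtse1 (1.73 ± 0.32) and Cep55 (1.48 ± 0.41), an abscission protein, were highest. Wee1 (-0.60 ± 0.24), the kinase that holds CDK1 inactive, Aspm (-0.54 ± 0.23), a spindle pole protein, and Cit (-0.53 ± 0.22), a kinase of cytokinesis, were lowest. Wee1 stood at 7.4 RPKM in the control, 5.06, 3.83 and 3.47 in DSS and 4.76, 3.23 and 4.49 in PhIP/DSS, below the control in all 6 treated libraries. The 26 CDK inhibitors and G1 regulators had median day 1 ratios of 1.09 and 1.23. Of the 11 crypt stem cell genes 10 passed the filter on low values, and their median ratio to the control was 0.708, 0.615 and 0.579 on days 1, 3 and 7 of DSS and 0.633, 0.841 and 0.797 in PhIP/DSS, below 1 in all 6 treated libraries.

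**Figure D5:**
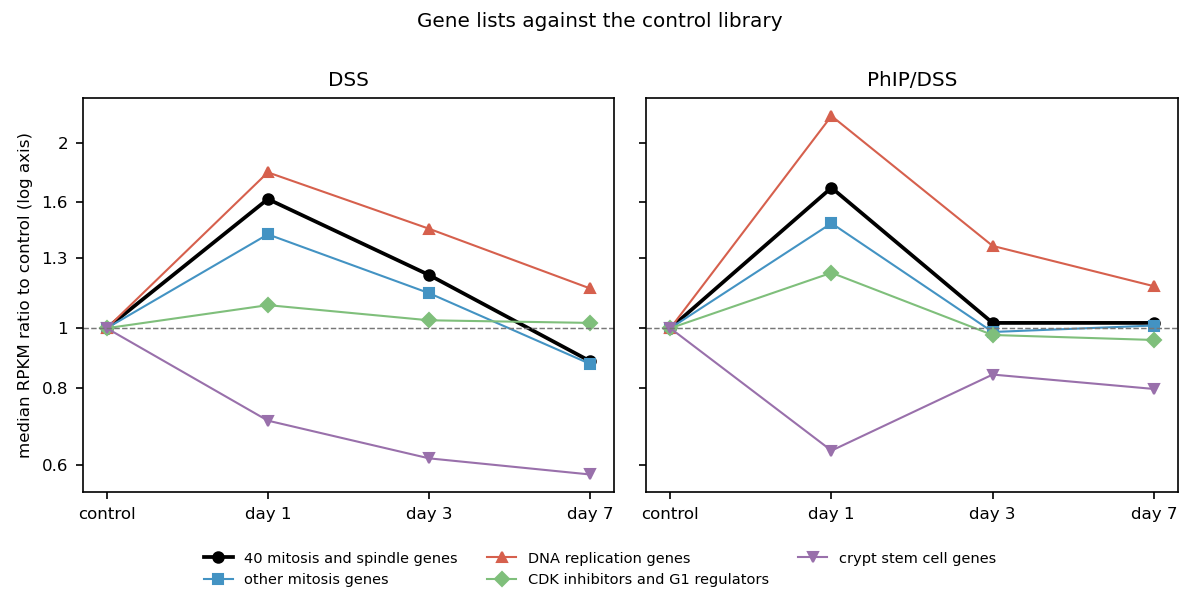
Median RPKM ratio to the control library on a log axis for the 40 mitosis and spindle genes (black), other mitosis genes, DNA replication genes, CDK inhibitors and G1 regulators, and crypt stem cell genes, by day in DSS (left) and PhIP/DSS (right), 1 library per point. The 40 genes run from 1.62 to 0.884 in DSS and from 1.69 to 1.02 in PhIP/DSS, below the replication genes on every day.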

How the data were processed

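RNA was enriched with oligo-dT beads, reverse transcribed from random hexamers and sequenced on an Illumina HiSeq, per the labels' protocols. The submitters' processing notes name the mm10 build and FastQC. Not given in the sources used here are the aligner, counter, annotation and strandedness, so reads of overlapping or antisense genes cannot be told apart. Per the file headers, the deposited tables give for each gene a count of unique reads, a length, the coverage in percent and RPKM, which the authors computed from reads, length and library total. Genes with no reads are missing from a table and were entered as 0.

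The groups and days come from the sample labels, from which the day codes in the names of the deposited tables differ. Identifiers were matched to symbols with the RefSeq table of GRCm38.p6 (17983 of 18036 genes, all 40 members). A filter of 1 RPKM in 2 or more libraries left 12061 genes, all 40 members among them, for edgeR 4.0.16 under R 4.3.3 (quasi-likelihood after TMM, Benjamini-Hochberg over all genes, call at an adjusted p under 0.05) with a level for the control and each day and 1 term for PhIP. The common dispersion was 0.0563. The control's spread was taken to equal that of the treated libraries. DESeq2 1.42.0 and limma 3.58.1 (log2 of RPKM plus 1 or 0.1) were alternatives, and adjusted p-values that DESeq2 left out were not counted as calls or as genes tested. Ratios between single libraries are ratios of RPKM with exact 95% counting intervals (SciPy 1.17.1) and no test. PCR duplicates were not marked by molecular identifiers, so the intervals cover counting error only.

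Values in every library are given for the 2 most abundant and the 2 most variable members of each role (all of roles with 3 or fewer), and for Mki67, Top2a, Ccnb1, Ccnb2 and Cdk1. Of the other mitosis and the replication genes the 3 highest and 3 lowest by fitted day 1 value are named. The members, lists and settings were chosen with earlier results of these data known.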

Additional observations from a re-analysis of the deposited data

Results flagged for a closer look

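In 4 places a member moved in opposite directions in the arms beyond the counting interval of each ratio. All 40 members were searched for this, on each day against the control and in each step between days. As the interval was computed for the members only, no share of all genes stands beside this count. Each arm and day is 1 library, so the difference between the arms was not tested. Mki67, the gene of the proliferation antigen Ki-67, stood above the control on day 1 of DSS (43.4 against 36.8 RPKM) and below it on day 1 of PhIP/DSS, at a ratio of 0.88. From day 3 to day 7, Kif11 stood at a ratio of 0.656 in DSS and 1.21 in PhIP/DSS, Hmmr at 0.757 and 1.24, and Kif20a at 0.747 and 1.28. All 3 encode spindle or midzone proteins, a class from which the members were chosen.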

How the results depend on the processing

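No paired analysis was possible because each condition has 1 library, so the groups compared share only 1 replicate number. The arms were instead matched by day in the model, and without day levels PhIP/DSS against DSS again gave 0 members called, with a median of -0.01. For day 1 against the control, 8 members were called with DESeq2 (1243 genes in all), 15 without the PhIP term (1305 genes) and 0 to 23 when 1 library was left out (0 to 4280 genes), and the median log2 fold change was 0.46 with epithelial marker reads as library size. For day 3 against day 1, 2 members were called with DESeq2 (75 genes) and 0 to 15 with 1 library left out (0 to 1481 genes), where the median ran from -0.75 to -0.38. Leaving out 1 library gave 0 to 2 member calls for day 3 against the control (0 to 2271 genes), with a median of 0.01 to 0.41, 0 to 1 for day 7 against the control (0 to 2010 genes), and a median of -0.38 to -0.02 for day 7 against day 3. With 1 library left out, the lone library of that day is assumed to vary like the others. Of 560 member values per comparison (40 members under 14 settings), the fitted sign differed from the main one in 5 for day 1 and 37 for day 3 against the control, 31 for day 7 against the control, 0 for day 3 against day 1, 27 for day 7 against day 3 and 90 for PhIP/DSS against DSS. None of these members was past the threshold.

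Counts at 1.5-fold moved with the scaling. Scaled by epithelial marker reads, 10 members were higher on day 1 (8.22% of all genes) and 2 on day 3 (12.4%) of DSS. In PhIP/DSS 15 were higher on day 1 (15.5% of all genes) and 0 on day 3 (7.81%). In PhIP/DSS against DSS, 1 was lower on day 3 (9.17% of all genes) and 0 on day 7 (4.95%). From day 1 to day 3 of DSS 0 were lower (2.65% of all genes). With TMM scaling 1 was higher on day 7 in PhIP/DSS than in DSS, and 3 were lower on day 3 than on day 1 of DSS. At 2-fold, 5, 1 and 0 members were higher than the control on days 1, 3 and 7 of DSS, and 9 and 0 on days 1 and 3 of PhIP/DSS. At 2-fold 0 members were higher and 0 lower in PhIP/DSS than in DSS on day 7. From day 1 to day 3 0 were lower at 2-fold in DSS and 6 in PhIP/DSS, and from day 3 to day 7 of DSS 0 were. The share of all genes was not computed for the TMM and 2-fold counts. Those counts show only how the numbers of members move with the setting. In the 200 bases before the start 11 member windows held a CHR and 0 a TATA box. The cause of these shifts was not tested. Depth limits the least abundant members, such as Ndc80 with 47 reads in its lowest library.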
